A study of Mus musculus with 14 samples.

Results

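MHC class II presentation was examined through 8 genes, picked by name from the 55487 gene rows of the raw counts table. They were the class II chains *H2-Aa*, *H2-Ab1* and *H2-Eb1*, the invariant chain *Cd74*, the peptide-exchange chains *H2-DMa* and *H2-DMb1*, the transactivator *Ciita* and the protease *Ctss*. All 8 had reads in these livers, and 6 had enough for the test across genes. *H2-DMb1* and *Ciita*, with 66 and 131 reads over all mice, did not pass its filter and are described by their reads.

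The libraries came from the right liver lobe of 14 male TALLYHO mice, 8 to 12 weeks old, a polygenic model of type 2 diabetes in which males become hyperglycaemic and insulin resistant. Vehicle (water) was given by oral gavage to 7 mice, and 20 mg/kg indole to the other 7, as 2 doses per day on 7 days. After a metabolic test, a further day of dosing and another metabolic test, the livers were taken. Each library is 1 mouse, named G1 to G14. The labels give no batch, litter or pairing.

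MHC class II molecules hold peptides from swallowed proteins at the surface of antigen-presenting cells, where CD4 T cells read them. An alpha and a beta chain pair in the endoplasmic reticulum around the invariant chain, which plugs the groove and guides the complex to endosomes. There cathepsin S trims the invariant chain to a short peptide, and H2-M, made of the DMa and DMb chains, exchanges it for peptides of the swallowed protein. CIITA, which does not bind DNA itself, switches these genes on through factors assembled on the X and Y boxes of their promoters. In liver the molecules are known mainly from Kupffer cells, dendritic cells and B cells, whereas hepatocytes carry little. In RNA from whole tissue, more such cells and more RNA per cell cannot be told apart.

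The class II chain and H2-M genes lie in the MHC on chromosome 17 of GRCm38. *H2-DMa* spans 34119541 to 34139101, *H2-DMb1* 34153072 to 34160230, *H2-Ab1* 34257689 to 34269419 and *H2-Eb1* 34305867 to 34316674, all on the forward strand. *H2-Aa* spans 34282744 to 34287823 on the reverse strand. *Ciita* lies on chromosome 16 from 10480059 to 10528418 and *Ctss* on chromosome 3 from 95526786 to 95556403. All are protein coding. *Ciita* overlaps *Dexi*, and *H2-DMa* overlaps *Brd2*, each on the opposite strand, with 4348 and 10855 reads over the 14 mice.

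Promoter stretches of 4 genes are printed to show the Y box letters, which 7 of the 9 class II pathway genes with a window share, beside the X box core and 2 motifs that 1 gene each holds. RefSeq windows on GRCm38.p6, from 250 bases before to 50 bases after the start, were found for 5 of the 8 members. No window was found for *H2-Ab1*, *Cd74* or *Ciita* in the set searched here. Capitals mark the Y box letters TGATTGG, the X box core ACNGATG, a cyclic AMP response element (TGACGTCA) in *H2-Aa*, and the interferon-stimulated response element letters GAAANNGAA in *Ctss*. The first 3 stretches run from base −110 to base −31 and that of *Ctss* from base −60 to base 20 relative to the start. Their coordinates are chr17:34287854-34287933 (reverse strand), chr17:34305757-34305836, chr17:34153081-34153160 and chr3:95526726-95526805.
H2-Aa: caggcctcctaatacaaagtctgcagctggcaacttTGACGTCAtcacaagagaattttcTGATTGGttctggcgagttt
H2-Eb1: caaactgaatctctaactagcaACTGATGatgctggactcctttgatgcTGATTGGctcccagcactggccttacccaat
H2-DMb1: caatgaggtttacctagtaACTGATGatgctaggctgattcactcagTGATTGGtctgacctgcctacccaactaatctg
Ctss: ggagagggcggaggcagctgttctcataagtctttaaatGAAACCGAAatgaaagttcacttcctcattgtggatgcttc

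Both strands were searched. The Y box letters were present in the windows of *H2-Aa*, *H2-Eb1* and *H2-DMb1*, starting at −50, −61 and −63, against 7.82% of 32851 promoter windows of the same length. The X box core was present in *H2-Eb1* and *H2-DMb1*, where it starts 27 and 28 bases before the Y box, and in 9.85% of windows. It was also present in *H2-Aa*, on the other strand at −232, and in *Ctss* at −206, outside the stretches printed. The response element in *H2-Aa* starts at −74 and is present in 1.79% of windows. The letters in *Ctss* start at −21 and are present in 8.56% of windows. The Y box letters were not found in *Ctss*, and none of the motifs was found in either of the windows listed for *H2-DMa*. These matches describe letters and not bound sites.

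Between 15197498 and 21060376 reads were counted per mouse. No pair of libraries within a group agreed within sampling noise. The tissue label held, with *Alb*, the albumin gene of hepatocytes, between 47410 and 78250 CPM (counts per 1e+06 reads after TMM scaling). One library stood apart for the genes described here, that of indole-treated mouse G8. It had the highest level of all 14 mice for each of the 8 members. The comparisons of the members between the groups are therefore given with and without it.

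Per kilobase of listed gene length, the median levels over the 14 mice ran from *Cd74* (20.6 CPM per kb) through *Ctss* (8.95), *H2-Eb1* (3.68), *H2-Ab1* (1.32), *H2-Aa* (0.920), *H2-DMa* (0.343) and *H2-DMb1* (0.108) to *Ciita* (0.0264). *Cd74* was above *Ctss*, *H2-Eb1* above *H2-Ab1*, *H2-Aa* above *H2-DMa* and *H2-DMa* above *H2-DMb1* in 14 of 14 mice. *Ctss* was above *H2-Eb1* in 13 of 14 mice, the exception being G8. The order of *H2-Ab1* and *H2-Aa* was less stable, with *H2-Ab1* higher in 10 of 14 mice, and *H2-DMb1* was above *Ciita* in 11 of 14. The reads were aligned to a reference of another strain, C57BL/6J. How far TALLYHO class II alleles cost a gene uniquely mapped reads was not tested. *H2-DMb1* and its neighbour *H2-DMb2* are close copies whose reads can be shared.

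The class II chains were low in every liver except one. *H2-Aa*, the alpha chain of the I-A molecule, ran from 2.07 to 7.74 CPM among vehicle-treated mice (median 3.93) and from 2.58 to 33.6 CPM among indole-treated mice (median 3.16). G8 held the 33.6 CPM, and the other 6 indole-treated mice reached 3.91 CPM at most. Those 6 were all below the vehicle median, although none was below the lowest vehicle-treated mouse.

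*H2-Ab1*, the beta chain that pairs with it, ran from 1.47 to 7.41 CPM among vehicle-treated mice (median 3.59) and from 1.25 to 30.35 CPM among indole-treated mice (median 2.36), with G8 highest. *H2-Eb1*, the beta chain of the I-E molecule, was the most abundant of the chains, at 5.60 to 17.6 CPM among vehicle-treated mice (median 9.14) and 4.003 to 75.2 CPM among indole-treated mice (median 6.27). Vehicle-treated mice G1, G4 and G9 lay at 17.2, 17.6 and 14.8 CPM, above every indole-treated mouse other than G8. Without G8 the indole group ended at 8.35 CPM, and again all 6 of its mice were below the vehicle median. In G8 these chains were at 10.7, 13.1 and 12.2 times the median of the other indole-treated mice for *H2-Aa*, *H2-Ab1* and *H2-Eb1*, and at 4.35, 4.10 and 4.27 times the highest vehicle-treated mouse.

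*H2-Ea*, the alpha chain that would pair with H2-Eb1, had 0 reads in all 14 mice. Such a count allows up to 3 reads per mouse, which is 0.142 to 0.203 CPM. The I-E beta chain was therefore measured without a read of its partner. C57BL/6 mice are known not to transcribe this alpha gene.

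*Cd74*, on the forward strand of chromosome 18 from 60803848 to 60812652 in GRCm38, was the most abundant member. Among vehicle-treated mice it was at 71.35 CPM in G1, 63.7 in G4, 57.4 in G9, 39.7 in G11, 28.1 in G10, 24.3 in G13 and 22.6 in G6. Among indole-treated mice it was at 278.6 CPM in G8, 44.6 in G3, 37.5 in G5, 31.75 in G14, 29.0 in G2, 29.0 in G7 and 21.03 in G12. The groups overlapped, with G8 above and G12 below every vehicle-treated mouse. The 4141 reads behind the G8 value gave a 95% counting interval of 270.2 to 287.2 CPM, so counting error was small beside the gap to G1.

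**Figure D1:**
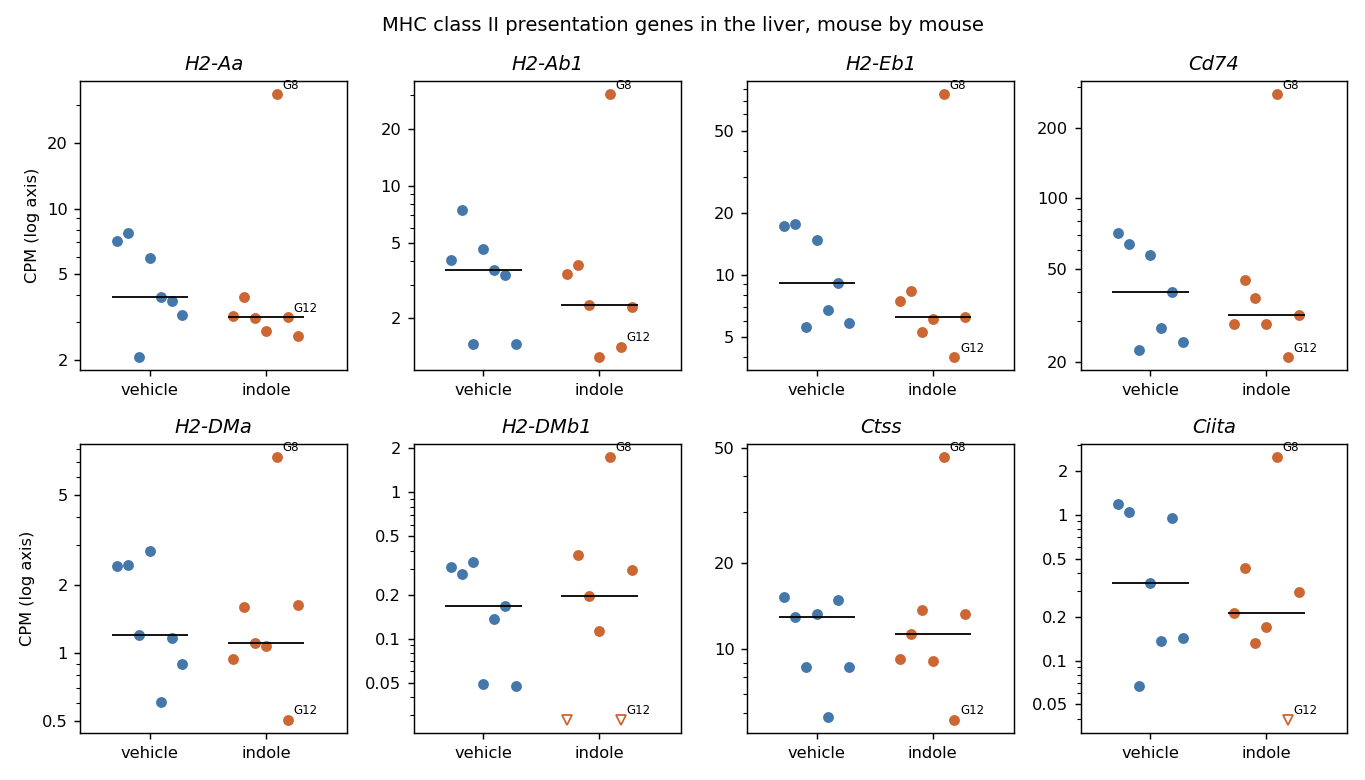
CPM of each member (log axis) in 7 vehicle-treated (blue) and 7 indole-treated (orange) mice, each point being 1 mouse, each bar a group median and each open triangle a mouse with 0 reads drawn at the lower edge. G8 is the highest point of all 8 panels, and G12 lies below every vehicle-treated mouse in 7 of the 8.

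The peptide-exchange chains had few reads. *H2-DMa* ran from 0.610 to 2.83 CPM among vehicle-treated mice (median 1.20) and from 0.507 to 7.40 CPM among indole-treated mice (median 1.11), with G8 at 6.76 times the median of the other indole-treated mice. *H2-DMb1* had 1 to 6 reads per vehicle-treated mouse. It had 26 reads in G8 and 0 to 7 in the remaining indole-treated mice, so its groups could not be told apart below the level of G8.

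*Ctss*, the protease that removes the invariant chain, was the member least above the other indole-treated mice in G8. It ran from 5.83 to 15.2 CPM among vehicle-treated mice (median 12.95) and from 5.69 to 46.6 CPM among indole-treated mice (median 11.35). G8 was at 4.53 times the median of the other indole-treated mice and 3.07 times the highest vehicle-treated mouse, where *H2-DMa* was at 2.61 times and *Ciita* at 2.10 times.

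*Ciita* was at the edge of detection. It had 23, 19 and 17 reads in vehicle-treated mice G1, G4 and G11, and 1 to 7 in the other 4. Among indole-treated mice it had 37 reads in G8, 8 in G3, 5 in G14, 4 in G2, 3 in G7, 2 in G5 and 0 in G12. The level in G8 was 2.49 CPM (95% counting interval 1.75 to 3.43), and that in G1 was 1.19 CPM (0.751 to 1.78), so the intervals of the highest mouse of each group just overlapped.

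The mice that had more *Ciita* also had more of its target genes. Over the 13 mice without G8, log2 CPM of *Ciita* and *H2-Eb1* had a Pearson's *r* of 0.853 (permutation *p*=0.00021, 0.000735 adjusted over 7 relations) and a Spearman's rho of 0.945 (permutation *p*=1e-05, the smallest that 100000 permutations give, 7e-05 adjusted). *Cd74* followed with *r*=0.848 (permutation *p*=0.00017, adjusted 0.000735) and rho=0.896 (permutation *p*=0.00012, adjusted 0.00042). With G8 included the values were *r*=0.848 and rho=0.956 for *H2-Eb1* and *r*=0.836 and rho=0.916 for *Cd74*. Without G12 and G8, the pair farthest from the *Ciita* median, *r* was 0.833 for *H2-Eb1* and 0.846 for *Cd74* over 12 mice.

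For *H2-Aa*, *H2-Ab1*, *H2-DMa* and *Ctss*, *r* over the 13 mice was 0.669, 0.746, 0.761 and 0.796, and rho was 0.687, 0.736, 0.709 and 0.698, with adjusted permutation *p* values up to 0.0139. *H2-DMb1* was the exception, with *r*=0.522 (adjusted permutation *p*=0.0692) and rho=0.363 (adjusted permutation *p*=0.225). Among all 28 pairs of members the median rho over 14 mice was 0.745, and it was 0.682 without G8. The points pool both groups and share the scaling of each library, and what the number of class II-bearing cells adds to the relation was not tested.

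Whether indole changed these genes was tested with edgeR over 12653 genes. None of the 6 members tested differed between the groups, at an unadjusted *p* of 0.05 or after adjustment (adjusted *p*=0.998 from edgeR for each). The share of all genes with an unadjusted *p* below 0.05 was 3.81%, of which 1.53% of genes were higher and 2.28% lower among indole-treated mice, and 0 genes passed after adjustment by edgeR or by DESeq2, whose background at an unadjusted *p* below 0.05 was 3.19%. The fitted log2 fold changes of the members were all above 0, with a median of 0.57 against 0.00 for all genes tested, of which 51.3% were above 0 and 48.7% below. They were 0.61 for *H2-Aa* (standard error 0.66), 0.76 for *H2-Ab1* (0.749), 0.53 for *H2-Eb1* (0.705), 0.61 for *Cd74* (0.616), 0.26 for *H2-DMa* (0.539) and 0.44 for *Ctss* (0.432). Each was about as large as its standard error or smaller.

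The direction rested on G8. Without that mouse all 6 log2 fold changes were below 0, with a median of −0.58 against 0.01 for all genes, of which 48.4% were below 0 and 51.6% above. They were −0.63 for *H2-Aa* (standard error 0.248), −0.62 for *H2-Ab1* (0.363), −0.82 for *H2-Eb1* (0.305), −0.45 for *Cd74* (0.307), −0.54 for *H2-DMa* (0.351) and −0.13 for *Ctss* (0.231). Unadjusted, *H2-Aa* and *H2-Eb1* had a *p* of 0.0199 and 0.0186 in edgeR, and their adjusted *p* was 0.999. These were 2 of 6 members, against 4.16% of genes in that fit (1.67% higher and 2.49% lower). G8 was left out because it was highest for these same members, which lowers each of their indole means. The shares of all genes are therefore not a like background for the members here. Differences in mean log2 CPM were tested by exact permutation of the mouse labels, two-sided. Without G8 they were −0.506 for *H2-Aa* (exact permutation, *p*=0.11) and −0.695 for *H2-Eb1* (exact permutation, *p*=0.0705). With G8 they were −0.016 (exact permutation, *p*=0.992) and −0.178 (exact permutation, *p*=0.823), below 0 unlike the edgeR values. That of *H2-DMa* with G8 was −0.027, also below 0. Those of *H2-Ab1* (0.0066), *Cd74* (0.102) and *Ctss* (0.208) were above 0, as in edgeR. With or without G8, the difference did not exceed the spread between mice by this test.

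The group means showed the same dependence. *Cd74* was at 43.9±20.2 CPM (SD, *n*=7) among vehicle-treated mice, 67.4±93.45 CPM (SD, *n*=7) among indole-treated mice and 32.1±8.10 CPM (SD, *n*=6) among indole-treated mice without G8. *H2-Eb1* was at 11.01±5.38 CPM (SD, *n*=7), 16.1±26.1 CPM (SD, *n*=7) and 6.26±1.55 CPM (SD, *n*=6). For both genes the spread between indole-treated mice was larger than that between vehicle-treated mice with G8, and smaller without it. G8 was left out for its high values while every vehicle-treated mouse was kept, which by itself narrows the indole spread. The smaller spread without G8 therefore cannot show that the groups differ in spread.

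The authors' tool gave the members opposite signs. DESeq2 with its default settings, which replace a count far from the rest of its group when a group has 7 mice, put *H2-Aa* at −0.57 (standard error 0.243, unadjusted *p*=0.0181, adjusted *p*=0.996) and its partner *H2-Ab1* at −0.57 (standard error 0.328, unadjusted *p*=0.0818). It put *H2-Eb1* at 0.56 (standard error 0.666), *Cd74* at 0.63 (0.588) and *Ctss* at 0.47 (0.427). Over all 22535 genes it put 52.9% above 0 and 47.1% below, with 1.4% higher and 1.79% lower at an unadjusted *p* below 0.05. The 500 reads of *H2-Aa* and the 451 reads of *H2-Ab1* in G8 had been replaced by 58 and 44, while no count of the other 6 members was replaced. With the replacement switched off, *H2-Aa*, *H2-Ab1* and 5 other members were above 0, and *Ciita* alone was below.

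**Figure D2:**
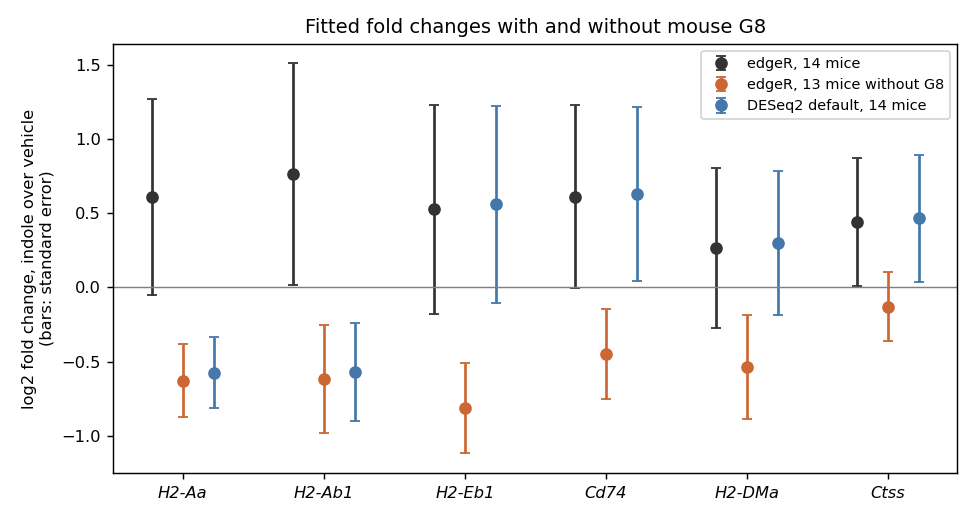
Fitted log2 fold change of indole over vehicle for the 6 members tested, with standard errors, from edgeR on 14 mice (black), edgeR on 13 mice without G8 (orange) and DESeq2 with default settings on 14 mice (blue). All 6 black points are above 0 and all 6 orange points below it, while the blue points of *H2-Aa* and *H2-Ab1* lie with the orange ones.

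Ratios within a library need no scaling between libraries, and showed which members kept step with the invariant chain. G8 lay within the vehicle range for the chains, although it was the highest indole-treated mouse for *H2-Eb1*. Per 100 reads of *Cd74* it had 12.1 reads of *H2-Aa*, where the vehicle group ran from 9.15 to 14.01, 10.9 of *H2-Ab1*, where that group ran from 5.70 to 12.8, and 27.0 of *H2-Eb1*, where it ran from 23.0 to 27.65. *Ctss* was different, since G8 had 16.7 reads per 100 of *Cd74*, the lowest of the 14 mice, against 20.3 to 38.35 among vehicle-treated mice and up to 41.7 among indole-treated mice. Across all mice the SD of the log2 ratio to *Cd74* was 0.282 for *H2-Aa*, 0.455 for *H2-Ab1* and 0.263 for *H2-Eb1*, while the SD of their log2 CPM was 1.002, 1.19 and 1.08.

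The ratio of *H2-Eb1* to *Cd74* was the tightest of the 7 among vehicle-treated mice, with a mean log2 ratio of −2.01±0.0851 (SD, *n*=7). It was −2.29±0.312 (SD, *n*=7) among indole-treated mice, and 5 of its 7 mice, G3, G5, G7, G12 and G14, lay below every vehicle-treated mouse. The medians were 24.2 and 19.7 reads of *H2-Eb1* per 100 of *Cd74*. The difference of −0.28 on the log2 scale gave *p*=0.0309 by exact permutation, two-sided, which did not pass after adjustment over the 7 ratios (exact permutation, adjusted *p*=0.216). Without G8, whose ratio was that of the vehicle group, the difference was −0.35 (exact permutation, *p*=0.00641, adjusted *p*=0.0449). This call thus depends on leaving out a mouse that was singled out by its values. The other 6 ratios differed by −0.68 to 0.11 on the log2 scale, with adjusted *p* values from 0.832 to 0.840 by exact permutation.

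**Figure D3:**
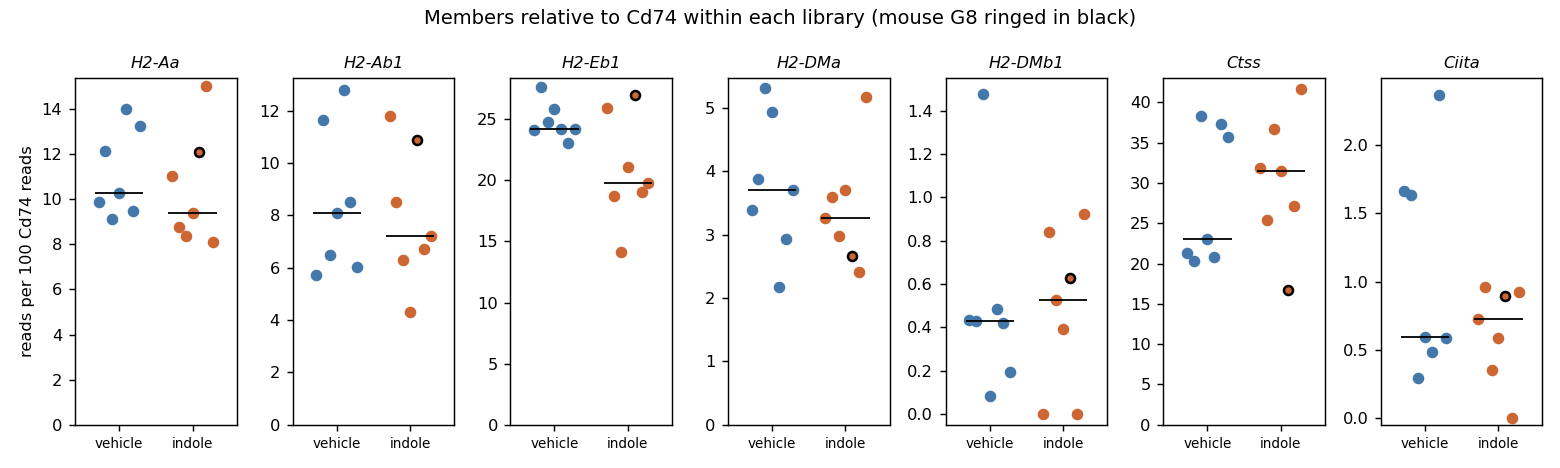
Reads of each member per 100 reads of *Cd74* in the same library, for 7 vehicle-treated (blue) and 7 indole-treated (orange) mice, with bars at the medians and G8 ringed in black. G8 sits within the vehicle range for the chains, although highest of the indole group for *H2-Eb1*, and is the lowest mouse for *Ctss*. For *H2-Eb1*, 5 indole-treated mice lie below all vehicle-treated mice.

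Marker genes of the cells that could carry class II were measured in the same libraries. The 13 Kupffer cell and macrophage markers all passed the filter, and 11 of them were highest in G8. They summed to 555 CPM in G8, to 126 to 300 CPM among vehicle-treated mice and to 151.5 to 252 CPM in the remaining indole-treated mice. The summed members came to 0.858 CPM per CPM of those markers in G8, against 0.179 to 0.487 among vehicle-treated mice and 0.235 to 0.336 in the remaining indole-treated mice. So the members were further above the other mice than the macrophage markers were. *Clec4f*, a Kupffer cell lectin, was the most abundant of the macrophage markers over the 14 mice, with 11242 reads.

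The 8 B cell markers summed to 0.875 CPM in G8, within the 0.663 to 1.91 CPM of the vehicle group and below every other indole-treated mouse. The 8 dendritic cell markers summed to 4.10 CPM in G8, within the 1.97 to 4.17 CPM of the vehicle group, and 2 of them were highest in G8. *Zbtb46*, a dendritic cell transcription factor also present in endothelium, held most of those reads. It was at 2.15 CPM in G8, the lowest of the indole group. The 2 highest in G8 were *Xcr1*, with 18 reads there and 0 to 10 per vehicle-treated mouse, and *Flt3*, with 6 there and 0 to 4. *Itgax* had 1 read in G8. The sum over 10 markers of T and NK cells was 7.94 CPM in G8, at most 3.57 CPM in any vehicle-treated mouse and at most 1.87 CPM in the rest of the indole group. *Gzmb* and *Gzma*, granzymes of killer cells, made up most of it at 2.89 and 2.36 CPM. Of the 10 genes, 5 were highest in G8, among them *Cd3g* with 11 reads. The T cell genes *Cd3e*, *Trac*, *Cd8a* and *Cd3d* had 0, 1, 2 and 3 reads there, within the vehicle range. No marker list was at 0 in all mice, and no gene of the B cell or T and NK cell lists had enough reads for edgeR. What part these cells had in the class II levels was not tested.

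Sinusoidal endothelial, hepatocyte and erythroid markers were not raised in G8, with none of the 6, 6 and 5 genes highest in that mouse. Between the groups, 1 of 6 endothelial markers had an unadjusted *p* below 0.05 in edgeR, *Clec4g* at a log2 fold change of 0.37, as did 1 of 6 hepatocyte markers, *Ttr* at 0.24, against 3.81% of all genes and 1.53% in that direction. Without G8, where 4.16% of genes had such a *p*, *Kdr* of the endothelial list (log2 fold change 0.28, unadjusted *p*=0.04) and *Zbtb46* of the dendritic list (0.43, unadjusted *p*=0.0484) joined them. All 5 erythroid markers were higher among indole-treated mice at an unadjusted *p* below 0.05, with and without G8, and *Hba-a1* was the most abundant at 0.99, although none passed after adjustment. Their sum was 204 to 384 CPM among vehicle-treated mice and 263 to 1092 CPM among indole-treated mice, with G8 the lowest of the latter. How blood content bears on the members was not tested.

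**Figure D4:**
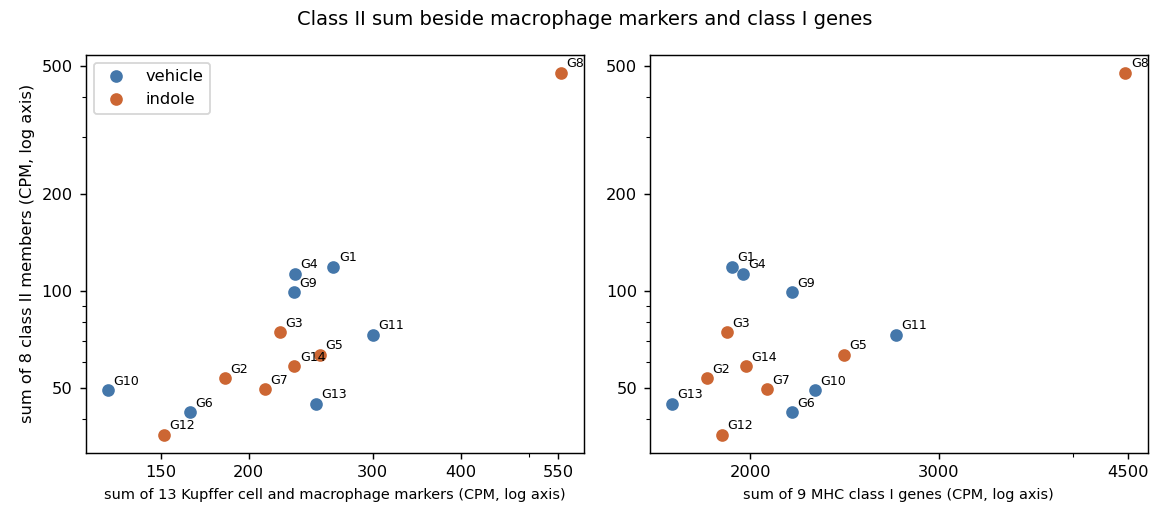
Summed CPM of the 8 members against the summed CPM of 13 Kupffer cell and macrophage markers (left) and of 9 MHC class I genes (right), 1 point per mouse and all axes logarithmic. G8 stands at 476 CPM on the vertical axis, while the other 13 mice lie between 35.8 and 119 CPM.

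Of 39 other listed genes that were tested, 9 of them MHC class I genes, 22 were higher and 17 lower among indole-treated mice by edgeR. Of all genes, 51.3% were higher. The class I genes made up 8 of the 22 and 1 of the 17. Of the 39, 0 had an unadjusted *p* below 0.05, against 3.81% of all genes. Without G8, 9 were higher and 30 lower, where 48.4% of all genes were lower, and 3 MHC class I genes had an unadjusted *p* below 0.05, against 4.16%. The remaining class II genes had few reads or none. *H2-DMb2*, the alternative beta chain of H2-M, had 186 reads over the 14 mice, more than the 66 of *H2-DMb1*. It was at 0.237 to 0.988 CPM among vehicle-treated mice and 4.04 CPM in G8. *H2-Oa* and *H2-Ob*, whose product restrains H2-M, had 32 and 36 reads over the 14 mice, and *H2-Eb2* had 17. The windows of these 4 genes all held the Y box letters shown above.

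The endosomal proteases and other processing genes, 11 tested, ranged widely in level. *Marchf1*, whose ligase marks class II for removal from the surface, was the lowest of those tested, at 0.339 to 1.11 CPM among vehicle-treated mice. *Ctsl*, cathepsin L, was the most abundant, from 904 to 1070 CPM in vehicle-treated mice and from 770.3 to 1085 CPM among indole-treated mice, and the list had a median log2 fold change of −0.02 (−0.01 without G8). Of its 12 genes, 5 were highest in G8, among them *Lgmn*, an asparagine-specific protease, at 59.5 CPM against at most 47.7 CPM in a vehicle-treated mouse. In G8 the genes of that list had a median log2 difference of 0.25 from the other indole-treated animals, and the 8 members one of 3.53. The 7 promoter factors of the X and Y boxes, led by *Nfyb* at 19.9 to 25.1 CPM among vehicle-treated mice and 20.8 to 27.3 CPM among indole-treated mice, had a median log2 fold change of 0.02 (−0.02 without G8), and a median log2 difference of −0.18 between G8 and the other indole-treated animals. None of the 7 was highest in G8.

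Upstream of *Ciita*, interferon gamma acts through its receptor, JAK kinases and IRF1. *Ifng* had 1 read in total. *Irf1* was at 32.8 CPM in G8, within the 19.7 to 33.5 CPM of the vehicle group. *Jak1*, the most abundant, ran from 72.0 to 91.7 CPM in vehicle-treated mice and from 68.1 to 89.3 CPM among indole-treated mice. The median log2 fold change of the 7 genes tested was −0.08, and −0.09 without G8.

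Of the partners on T cells and the costimulators, 4 were tested, with a median log2 fold change of 0.07 (−0.11 without G8). *Cd4*, the coreceptor that binds class II and is also carried by some macrophages, was at 4.37 CPM in G8, against 0.665 to 1.55 CPM among vehicle-treated mice. *Lag3*, another class II ligand, was the most abundant at 1.21 to 2.295 CPM among vehicle-treated mice and 1.37 to 3.21 CPM among indole-treated mice. *Cd86*, a costimulator, was at 1.75 CPM in G8, within the 0.678 to 2.22 CPM of the vehicle group. Of the 7 genes listed, 2 were highest in G8, *Cd4* and *Cd274*. The latter was at 4.10 CPM there, against 0.610 to 3.45 CPM among vehicle-treated mice.

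The MHC class I genes moved in the same mouse by less. Of 9 tested, 8 were highest in G8, with a median log2 difference of 1.38 from the other indole-treated animals, and *B2m*, the light chain and the most abundant, was at 2911 CPM there against 1166 to 1896 CPM among vehicle-treated mice. *Nlrc5*, which does for class I what CIITA does for class II, was the exception, at 6.48 CPM in indole-treated mouse G12 as its highest value.

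Outside the pathway, the genes most like the members were named by the Spearman's rho of their log2 CPM with the mean *z* score of the 6 members tested, a description over 14 mice. *Sp140*, a nuclear body protein, came first at rho=0.943, followed by *Samhd1*, a nucleotide hydrolase, at 0.938, and *Lsp1*, a leucocyte actin-binding protein, at 0.925. *Rgs19*, *Dock2*, *Itgb7*, *Elf4*, *Clec7a*, *Il2rb* and *Ptprc*, the CD45 gene of leucocytes, followed at 0.916 to 0.859. Over the 13 mice without G8, *Sp140*, *Samhd1* and *Lsp1* again came first, at 0.929, 0.923 and 0.912. *Elf4*, *Rgs19*, *8430422M14Rik*, *Dock2*, *Clk4*, *Itgb7* and *Abr* followed at 0.896 to 0.863. *Samhd1*, at a median of 19.7 CPM among vehicle-treated mice and 52.2 CPM in G8, was the most abundant gene on the first list, and each of the others on it averaged under 3 CPM.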

How the data were processed

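Adapter-trimmed reads from strand-specific polyA libraries were aligned by the authors to GRCm38 (HISAT2, Ensembl annotation), and the uniquely mapped ones were deposited as raw counts per gene, 1 column per mouse. The counting tool and its strand setting are not given in the sources used here. All 14 columns were used. Counts were compared with edgeR 4.0.16 in R 4.3.3 (TMM, filterByExpr, robust quasi-likelihood fit, Benjamini–Hochberg adjustment over 12653 genes, threshold 0.05), without covariates. The standard error is the log2 fold change over the square root of *F*. Levels are counts per 1e+06 reads on TMM-scaled totals, and log2 CPM for single genes used 0.5 added reads. Relabellings of mice were enumerated (3432 with all mice, 1716 without G8). Intervals (exact Poisson, 95%) and the floor of 3 reads cover counting error only. The procedure was tested on simulated counts. Alternatives were DESeq2 1.42.0 with and without replacement of counts, limma 3.58.1 voom with quality weights, RLE and upper quartile scaling, other filters, a fit that was not robust, and leaving out each mouse.

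The members, marker lists and pathway lists were chosen with earlier results of these data known. Named genes are the members, the most abundant gene of each list, list genes with an unadjusted *p* below 0.05, and the 10 genes most like the members with and without G8. Other list genes named were chosen after their values were seen. The length per kilobase is that of the deposited table. Motifs were searched in RefSeq promoter windows, first with the X box and interferon element longer by 3 and 1 letters. The shorter forms reported here were chosen after those matches were seen. A result for a listed gene is not reported here.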

Additional observations from a re-analysis of the deposited data

Results flagged for a closer look

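Outlying mice were sought in both groups for total reads, each member, their sum and their ratios to *Cd74*, by dividing an end mouse's distance from the next by the whole range. In 10 of 34 comparisons the result exceeded the 95% limit of Dixon for 7 values, a limit that chance passes in about 1 of 20, here 1.7. G8, as the highest indole-treated mouse, accounts for 9 of the 10. Those 9 count 1 library over members that rise and fall together, and over their sum. That mouse was also known beforehand to stand apart, so the 10 cannot be weighed against 1.7 as separate tests.

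The gap in G8 took up 0.957 of the group's range for *H2-Aa*, 0.912 for *H2-Ab1*, 0.939 for *H2-Eb1*, 0.908 for *Cd74*, 0.836 for *H2-DMa*, 0.786 for *H2-DMb1*, 0.803 for *Ctss* and 0.828 for *Ciita*. For the sum of the 8 members, 476 CPM against 74.45 CPM in the next mouse, it was 0.912. None of the 7 ratios to *Cd74* set G8 apart in this way. The total reads of G8, 15197498, were the fewest of the 14 mice but lay within the range that this comparison allows.

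Vehicle-treated mouse G6 had the highest ratio of *H2-DMb1* to *Cd74* of any mouse given vehicle, with 1.48 reads per 100 against 0.483 in the next mouse, and its gap took up 0.714 of the range. That value rests on 5 reads of *H2-DMb1*.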

How the results depend on the processing

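Under each alternative, DESeq2 and limma voom included, 0 genes had an adjusted *p* below 0.05, so no member passed. Counts of genes at an unadjusted *p* below 0.05 ranged from 386 to 627 when a mouse was left out, against 482 with all mice, and reached 1336 without a filter on low counts, where more genes with few reads were tested. Leaving out G8 turned every tested member. The log2 fold change ranged, over the fits that each left out 1 mouse, from −0.63 to 0.77 for *H2-Aa*, −0.62 to 1.02 for *H2-Ab1*, −0.82 to 0.70 for *H2-Eb1*, −0.45 to 0.77 for *Cd74*, −0.54 to 0.45 for *H2-DMa* and −0.13 to 0.59 for *Ctss*, and between 0 and 6 members were higher in the indole group. With sample quality weights in limma voom, which count an outlying library for less, 2 members were higher, and *H2-Aa* (−0.17), *H2-Ab1* (−0.23), *H2-Eb1* (−0.31) and *H2-DMa* (−0.16) were lower. DESeq2 with replaced counts gave −0.57 for both *H2-Aa* and *H2-Ab1*. Of the listed pathway genes, MHC class I included, 9 to 23 were higher and 16 to 30 lower when a mouse was left out, with 9 and 30 without G8. By DESeq2, which tested more genes, 27 were lower, or 23 with its replacement of counts switched off.

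The ratios to *Cd74* kept their sign apart from the 2 nearest 0 or with fewest reads. That of *H2-Ab1* ranged from −0.20 to 0.039, turning without G7 or G10, and that of *H2-DMb1* from −0.43 to 0.24, turning without G2, G6 or G12 and, at 0.11, with 2 reads added in place of 0.5. That of *H2-Eb1* ranged from −0.35 to −0.19, and without G8 it passed after adjustment. Without G4 its unadjusted *p* by exact permutation was 0.0659 (adjusted *p*=0.461). Leaving out G3, G5, G6, G9 or G12 also put the unadjusted *p* above 0.05. RLE and upper quartile scaling, the filter at a mean of 10 counts and the fit that was not robust turned no member. No paired analysis was possible because each mouse carries a library name that no other mouse shares. Depth limits *Ciita* and *H2-DMb1* most, with 0 to 37 and 0 to 26 reads per mouse.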

Other observations

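Without G8, all 9 MHC class I genes were lower in the indole group by edgeR, where 48.4% of genes were lower, with a median log2 fold change of −0.18. *Tapbp*, the chaperone that holds class I at the peptide transporter, had a log2 fold change of −0.21 (unadjusted *p*=0.0213), and the immunoproteasome subunits *Psmb9* and *Psmb8* had −0.23 (unadjusted *p*=0.041) and −0.26 (unadjusted *p*=0.0464). In that fit 4.16% of all genes had an unadjusted *p* below 0.05, 2.49% of genes being lower, and none of the 9 had an adjusted *p* below 0.05. With G8, 8 of the 9 were higher, so the class I genes changed direction with the same mouse as the class II genes. G8 was the highest mouse for 8 of the 9, so leaving it out lowers their indole means. The shares of all genes are thus not a like background for them.

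*Marco*, a scavenger receptor of macrophages, was the 1 macrophage marker of 13 with a fitted log2 fold change below 0 in all mice (−0.24, standard error 0.577). It ran from 5.35 to 47.85 CPM in the vehicle group (median 12.95) and from 5.73 to 43.7 CPM in the indole group (median 10.6). Without G8 its log2 fold change was −0.84 (unadjusted *p*=0.113 in edgeR), and 9 of the 13 markers were below 0, with a median of −0.12. With vehicle-treated mouse G11 left out instead, the lowest log2 fold change of the 13 was −0.028, so that of *Marco* also depends on G11.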
